A study of Homo sapiens with 6 samples.

Results

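Prostaglandins are short-lived lipid messengers made from arachidonic acid. A phospholipase frees the fatty acid from membranes, a cyclooxygenase turns it into prostaglandin H2, and a terminal synthase makes prostaglandin E2 from that. The messenger acts through EP receptors on the cell surface and is inactivated inside cells, first by 15-hydroxyprostaglandin dehydrogenase and then by a reductase. In many epithelial tumours the inducible cyclooxygenase is high and the dehydrogenase is low.

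The genes described here were PLA2G4A (release of arachidonic acid), PTGS1 and PTGS2 (cyclooxygenases), PTGES, PTGES2 and PTGES3 (prostaglandin E synthases), HPGD and PTGR1 (breakdown), and PTGER2 and PTGER4 (the EP2 and EP4 receptors). Every probeset annotated with exactly 1 symbol, where that symbol was one of these genes, was taken. This gave 21 of the 54613 probesets tested and 10 of 19775 genes. The set was built around HPGD because the study's table of changed genes lists it. HPGD was therefore chosen from the same contrast, and its values are a description with no test.

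The study asked what FOXA1, a forkhead transcription factor, does to gene expression in bladder cancer cells. EJ bladder cancer cells, an established line also known as T24, were transfected with a FOXA1 construct on 3 arrays and with an empty vector on 3 control arrays. The labels name the empty vector as pUC19, whereas the methods describe a pcDNA3 vector with FOXA1 and an empty vector control. Both groups were the same line and received plasmid DNA with a Lipofectamine reagent. No selection for uptake is described, so an array may average cells with and without the plasmid. The time between transfection and harvest was not given in the sources used here, and the methods describe experiments in triplicate without tying each array to a dish of its own. The p-values reflect array-to-array spread alone, part of which may be technical.

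Signals are Microarray Analysis Suite (MAS5) intensities, and differences are log2 signal in FOXA1 transfected cells minus control. At its brighter probeset FOXA1 itself read 38.9, 34.8 and 31.9 in transfected cells against 21.8, 24.4 and 21.0 in control, a difference of 0.65 (SE 0.23, limma adjusted p = 0.307). The dimmer FOXA1 probeset, with signals from 2.5 to 8.0, did not separate the groups (-0.54). The methods also describe a western blot on part of the transfected cells to check FOXA1 expression, which array signals do not show. The trimmed mean signal was 100.01 on every array, and the median signal ranged from 12.3 to 17.5. The ACTB 3' to 5' signal ratio, a sign of RNA integrity, was 2.37 ± 0.228 after FOXA1 transfection and 1.73 ± 0.188 with the empty vector (SD, n = 3), without overlap. The same ratio for GAPDH was 0.920 ± 0.0217 and 0.899 ± 0.00926 (SD, n = 3), with overlap. The part of RNA integrity in the differences described here was not tested. All 12 epithelial and urothelial markers were measured, with a summed signal of 2477.6 to 2684.3 in transfected cells and 2178.3 to 2502.8 in control, most of it KRT18. KRT19 and UPK3A were at or under 3.5, the 20th percentile of all signals, on every array, and 8 of the 12, EPCAM, CDH1 and GATA3 among them, had means at or under the median signal of all probesets. Of 14 measured markers of leukocytes, mast cells, platelets, endothelium, liver and muscle, 12 were at or under that median. CD14 was at or under 3.5 on all arrays. ITGAM and PECAM1 were above the median. ITGAM overlapped between groups. PECAM1 read 42.8, 54.9 and 52.0 in transfected cells and 30.5, 35.8 and 42.2 in control, without overlap (limma adjusted p = 0.406). The summed signal of the 14 was 123.3 to 151.9 in transfected cells and 112.3 to 149.3 in control.

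The 250 bases before the annotated start were searched on both strands for a forkhead core, a TATA box, a cyclic AMP response half-site and a GC box. RefSeq sequences on GRCh38.p14 were held for all 10 genes, in 14 windows since some genes have several starts. HPGD and PTGS2 are shown because they are the breakdown enzyme the set was built around and the cyclooxygenase with the clearest difference. Both read 5' to 3' on the minus strand and end at the base before the start, and capitals mark the half-site, read here from its other strand, and, in PTGS2, also the TATA box. The HPGD window, before the most upstream of its 2 listed starts, is chr4:174522894-174523143, and the PTGS2 window is chr1:186680424-186680673.
HPGD: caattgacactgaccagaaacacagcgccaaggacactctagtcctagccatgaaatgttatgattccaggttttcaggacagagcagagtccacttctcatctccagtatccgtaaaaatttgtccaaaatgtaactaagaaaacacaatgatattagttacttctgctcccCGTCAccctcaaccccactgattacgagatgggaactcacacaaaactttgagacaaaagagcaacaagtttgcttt
PTGS2: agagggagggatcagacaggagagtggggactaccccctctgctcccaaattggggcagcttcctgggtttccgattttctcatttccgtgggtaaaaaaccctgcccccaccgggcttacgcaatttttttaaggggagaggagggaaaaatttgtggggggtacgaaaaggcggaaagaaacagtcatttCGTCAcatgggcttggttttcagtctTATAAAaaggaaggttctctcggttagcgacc

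The half-site, searched as TGACG, lay at bases -77 to -73 in HPGD and at -58 to -54 in PTGS2, where the TATA box followed at -32 to -27. Windows of PTGES3 and PTGER2 also held the half-site, so that 4 of the 14 windows had it against 21.2% of all 35116 RefSeq windows. The GC box, searched as GGGCGG, was in 10 of 14 windows against 42.6%, and the second HPGD start had 1 at -85 to -80. TATAAA was in 2 of 14 windows, those of PTGS2 and PTGS1, against 10.7%. The forkhead core, which FOXA1 and its relatives bind, was searched as TGTTTAC, with 3 variants that have A in place of the first G, G in place of the last A, or both. It was found in 0 of the 14 windows, against 10.6% of all windows, which says only that these letters are not in these stretches.

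With the 4 probesets of HPGD set aside untested, 0 of 17 passed limma at an adjusted p of 0.05, where 0.0385% of all probesets passed with a higher signal in transfected cells and 0.0201% with a lower one. At an unadjusted p under 0.05 there were 3 of 17, against 11.3% of all probesets: the brighter PTGS2 probeset and 2 probesets of PTGR1. The groups did not overlap at 3 of the 17 probesets with transfected cells higher, against 10.5% of all probesets, and at 3 of 17 with transfected cells lower, against 5.86%. Among these, 205127_at of PTGS1 and 207388_s_at of PTGES had most arrays at or under 3.5. The 4 HPGD probesets were all higher without overlap, and nothing is read from that count since HPGD was chosen from this contrast.

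**Figure D1:**
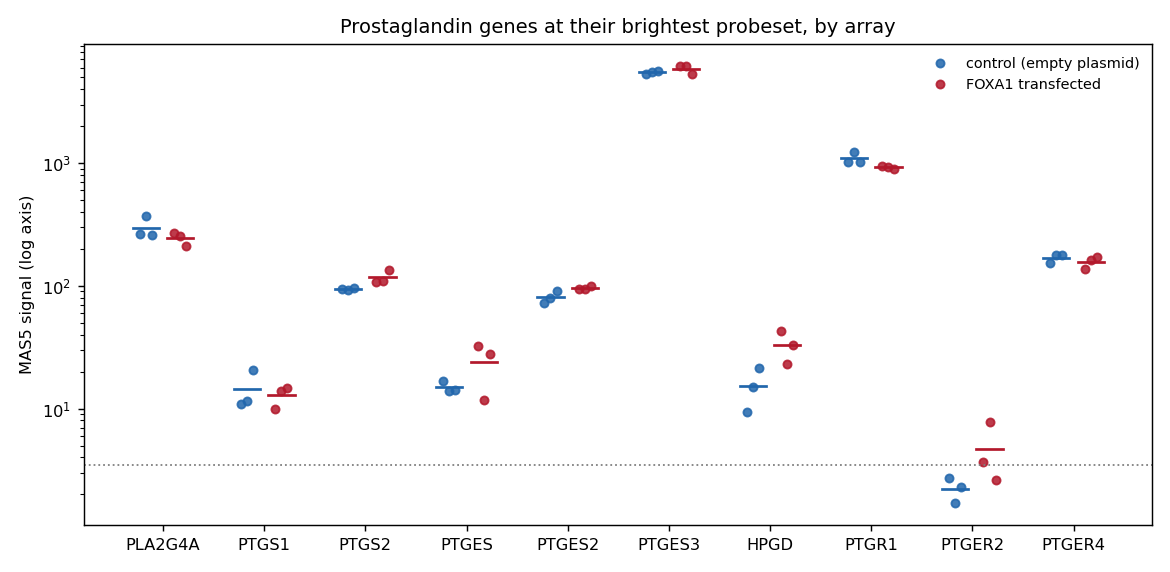
MAS5 signal (log axis) of each gene at its brightest probeset, with 1 point per array, a bar at the mean of 3 arrays, blue for control and red for FOXA1 transfected cells, and a dotted line at 3.5, the 20th percentile of all signals. HPGD, PTGS2 and PTGES2 sit above control without overlap, PTGR1 sits below, and PTGER2 lies near the dotted line.

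Among the enzymes of breakdown, HPGD, the dehydrogenase that inactivates prostaglandin E2, was higher in FOXA1 transfected cells at all 4 of its probesets. This direction is opposite to that in the study's table, which lists HPGD as lower with FOXA1. By the methods, that table rests on another summary of the arrays (RMA) and another test (SAM) than the MAS5 signals and limma used here. Every direction given here rests on the labels as deposited, and would turn if the labels of the groups were exchanged. Whether the labels or the sign in that table are exchanged, or whether the other summary plays a part, was not tested. FOXA1 itself differed by 0.65 at its brighter probeset (limma adjusted p = 0.307) and by -0.54, with overlap, at its dimmer one. These are RNA signals, and the study also checked FOXA1 by western blot in transfected cells. At its brightest probeset, 203913_s_at, HPGD signal was 42.8, 23.1 and 33.0 in transfected cells and 9.4, 15.1 and 21.5 in control, which gives means of 33.0 ± 9.85 and 15.3 ± 6.05 (SD, n = 3). The lowest transfected array lay just above the highest control array, and the difference was 1.14 (SE 0.37), a ratio of 2.20. In bulk cells, more cells with the transcript and more RNA per cell cannot be told apart, and likewise fewer and less.

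The probeset of the study's table, 203914_x_at, separated the groups more widely. It read 32.0, 27.5 and 26.3 in transfected cells against 10.8, 7.3 and 12.8 in control, a difference of 1.51 and a ratio of 2.84. The other 2 HPGD probesets were closer together. Probeset 211548_s_at read 23.2, 18.2 and 16.0 against 14.2, 11.6 and 9.9 (0.68, ratio 1.61), and 211549_s_at read 24.4, 22.8 and 12.9 against 10.5, 5.0 and 9.8 (1.27, ratio 2.41). FOXA1 array 1 was the highest of the 6 arrays at every HPGD probeset. When single arrays were left out in turn, the brightest probeset gave 0.83 to 1.42. All 4 HPGD probesets stayed above control in each processing setting that kept them, the smallest difference being 0.50 at 211548_s_at. These values describe the contrast HPGD was chosen from and are not a test of it. The gene lies at chr4:174490175-174522893 (GRCh38.p14).

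PTGR1, the reductase that takes the dehydrogenase's product further and also breaks down leukotriene B4, gave the smallest p among the 9 genes other than HPGD. Its probeset 228824_s_at read 627.6, 620.1 and 587.1 in transfected cells and 793.1, 877.7 and 769.6 in control. Every transfected array was below every control array. The means were 612 ± 21.5 and 813 ± 56.9 (SD, n = 3), with control 1.33-fold higher, a difference of -0.41 (SE 0.08, 95% interval -0.59 to -0.23) and a limma adjusted p of 0.107. That adjusted p was 0.0504 when dim probesets were left out of the test and reached 0.586 at its highest among the settings. The difference stayed below 0 in each of them.

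The other PTGR1 probesets did not all follow. The brightest, 231897_at, read 953.9, 926.8 and 903.8 against 1024.3, 1238.3 and 1019.5, again below control without overlap. Its difference was -0.23 (SE 0.09, 95% interval -0.43 to -0.04, limma adjusted p = 0.356), and -0.14 without control array 2. Probeset 228825_at, annotated to the same reference transcript as 228824_s_at, read 115.9, 108.2 and 113.5 against 101.8, 113.7 and 109.6. There the groups overlapped, with a difference of 0.06 (SE 0.11, limma adjusted p = 0.895) which was -0.13 after centring each array on its median and above 0 in the other settings. The gene lies at chr9:111549722-111599647 (GRCh38.p14).

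**Figure D2:**
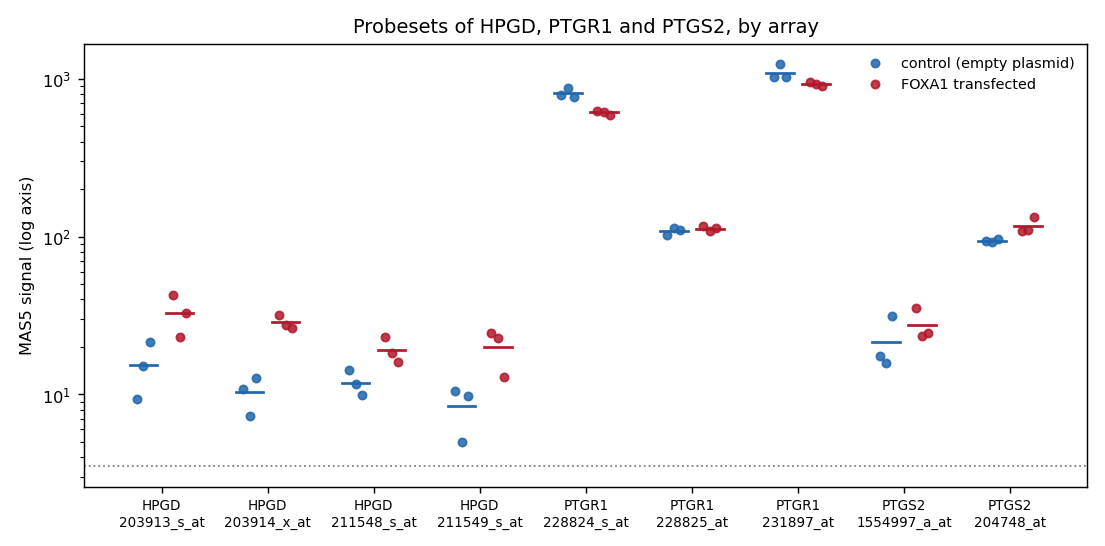
MAS5 signal (log axis) at every probeset of HPGD, PTGR1 and PTGS2, with 1 point per array, bars at group means, blue for control and red for FOXA1 transfected cells, and a dotted line at 3.5. All 4 HPGD probesets are higher in transfected cells without overlap, 2 of 3 PTGR1 probesets are lower without overlap, and 228825_at and 1554997_a_at overlap.

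Of the cyclooxygenases, PTGS2, the inducible form known as COX-2, was slightly higher in transfected cells. At 204748_at its signal was 108.4, 109.5 and 133.7 against 93.9, 92.7 and 96.5 in control. The control arrays were tightly grouped, at 94.4 ± 1.94 (SD, n = 3) against 117 ± 14.3, and the groups did not overlap. The difference was 0.31 (SE 0.12, 95% interval 0.03 to 0.58), a ratio of 1.24, with a limma adjusted p of 0.385. After centring each array on its median it was 0.12 (limma adjusted p = 0.854). The dimmer probeset, 1554997_a_at, read 35.1, 23.4 and 24.4 against 17.4, 15.9 and 31.4. Control array 3 lay above 2 of the transfected arrays there, and the difference of 0.40 (SE 0.33) had a limma adjusted p of 0.692. The gene lies at chr1:186671791-186680423 (GRCh38.p14).

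PTGS1, the constitutive cyclooxygenase known as COX-1, had 4 probesets that did not share a direction. The brightest, 215813_s_at, read 9.9, 14.0 and 14.7 in transfected cells and 11.0, 11.6 and 20.6 in control, a difference of -0.12 (SE 0.42, 95% interval -1.04 to 0.79). Its sign turned without FOXA1 array 1 (0.06) and without control array 3 (0.17). Probesets 205128_x_at and 238669_at gave 0.38 (SE 0.50) and 0.79 (SE 0.66), both with overlap between groups. At 205127_at transfected cells were above control without overlap, but all 6 arrays were at or under 3.5, from 1.0 to 2.6. The limma adjusted p of the 4 ranged from 0.705 to 0.944, and no PTGS1 probeset passed the test.

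The prostaglandin E synthases differed in how well they were measured. PTGES, the inducible microsomal form that works with COX-2, read 32.1, 11.7 and 28.0 at its brighter probeset, 210367_s_at, against 16.9, 13.9 and 14.2 in control. FOXA1 array 2 lay below all control arrays, and the difference of 0.55 (SE 0.41, 95% interval -0.34 to 1.44) had a limma adjusted p of 0.655. It was 0.28 without FOXA1 array 1 and 1.005 without FOXA1 array 2. The other probeset, 207388_s_at, had a difference below 0, at 2.0, 2.9 and 2.6 against 7.4, 8.4 and 3.2 (-1.24, SE 0.71, limma adjusted p = 0.550). It separated the groups, but 4 of the 6 arrays, all 3 transfected ones among them, were at or under 3.5.

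PTGES2 (218083_at), another membrane-bound prostaglandin E synthase, read 94.8, 94.8 and 99.0 against 72.2, 79.9 and 90.8. The groups did not overlap, with a difference of 0.25 (SE 0.13, 95% interval -0.03 to 0.54, ratio 1.19, limma adjusted p = 0.502). After centring each array on its median the PTGES2 difference was 0.07 (limma adjusted p = 0.923). PTGES3 (200627_at), the cytosolic synthase that is also the HSP90 co-chaperone p23, read 6204.0, 6129.5 and 5353.0 against 5353.4, 5557.8 and 5627.8. FOXA1 array 3 was the lowest of all 6 arrays, and the difference was 0.09 (SE 0.08, 95% interval -0.08 to 0.27, limma adjusted p = 0.710). That sign turned after quantile normalization (-0.11) and after centring each array on its median (-0.09).

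PLA2G4A (210145_at), the cytosolic phospholipase that frees arachidonic acid, read 268.7, 252.8 and 209.5 in transfected cells and 265.3, 368.9 and 259.8 in control. Control array 2 stood above the rest, while FOXA1 array 1 lay above 2 control arrays. The means were 244 ± 30.6 and 298 ± 61.5 (SD, n = 3), and the difference of -0.28 (SE 0.14, 95% interval -0.60 to 0.04) had a limma adjusted p of 0.502. It was -0.12 without control array 2 and -0.17 without FOXA1 array 3.

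Of the receptors, both of which raise cyclic AMP, PTGER4 was clearly detected at 204897_at and PTGER2 was close to the floor. PTGER4 read 137.7, 162.8 and 172.8 against 152.3, 178.5 and 177.5, a difference of -0.11 (SE 0.12, 95% interval -0.37 to 0.16, limma adjusted p = 0.789). The groups overlapped. The difference was -0.01 without FOXA1 array 1. Its second probeset, 204896_s_at, was at or under 3.5 on all 6 arrays (-0.28, SE 0.77). PTGER2 (206631_at) read 3.7, 7.8 and 2.6 against 2.7, 1.7 and 2.3, so that 4 of 6 arrays were at or under 3.5. Its difference of 0.94 had an SE of 0.75 and a 95% interval of -0.70 to 2.58, and the groups overlapped (limma adjusted p = 0.681). It was 0.50 without FOXA1 array 2.

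**Figure D3:**
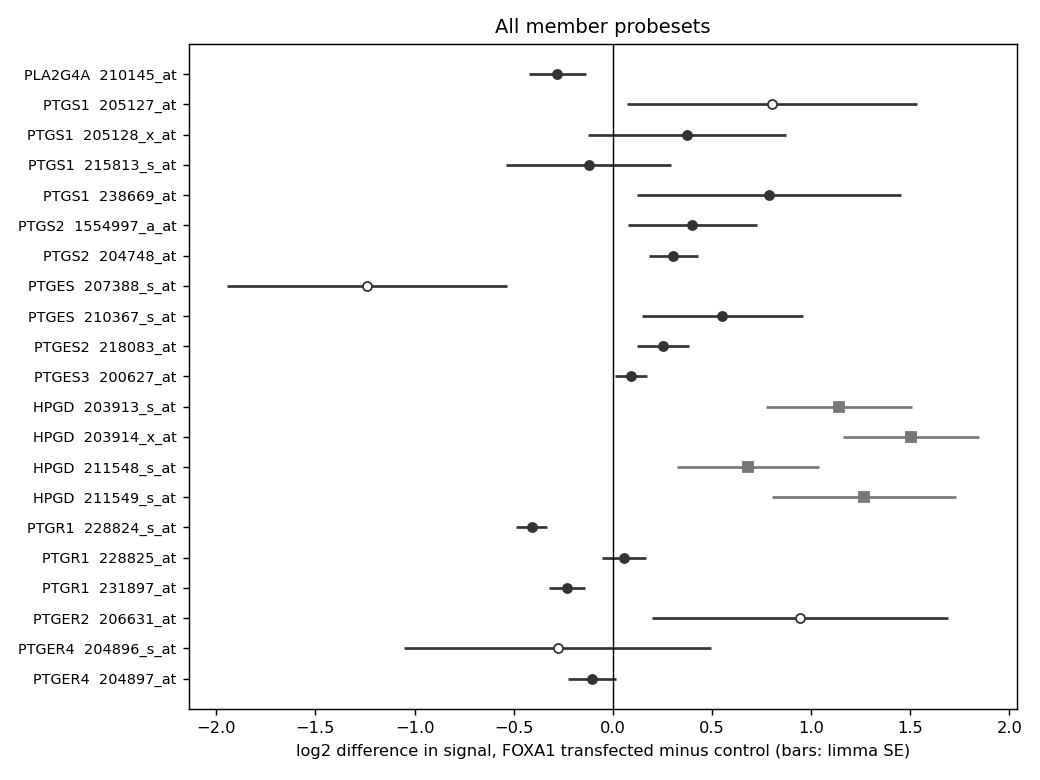
Log2 difference in signal, FOXA1 transfected minus control, at each of the 21 member probesets, with bars of 1 limma SE (3 arrays per group). Grey squares are HPGD, a description only, and open circles are probesets at or under 3.5 on 3 or more arrays. HPGD lies from 0.68 to 1.51, PTGR1 from -0.41 to 0.06, and PTGS1 and PTGES have probesets on both sides of 0.

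Without HPGD, 10 of 17 probesets were above 0 and 7 below, and 11 of 17 overlapped between the groups. The groups thus did not overlap at 6, against 16.4% of all probesets. Among the 6, 205127_at of PTGS1 and 207388_s_at of PTGES had most arrays at or under 3.5. Probesets 228824_s_at and 231897_at are both of PTGR1, so the 6 are not separate genes. At the brightest probeset of each gene, the median difference of the 9 genes other than HPGD was 0.09, with 5 above 0 and 4 below. Over all 19775 genes the median was 0.07, with 59.2% above 0. With HPGD the median of the 10 genes was 0.17, and it was 0.0515 after quantile normalization and -0.00788 after centring each array on its median.

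The rest of the prostanoid pathway was read from a list of 20 other genes, 19 of them measured. PTGER1 and TBXAS1 were in the study's table and were not tested. Of the other 17, 0 passed limma over all probesets, where 12 of all 19775 genes passed higher and 6 lower. Of the 17, 11 were above 0 and 6 below, against 59.2% of all genes above 0. The median was 0.28 against 0.07 for all genes. Of the 17, 1 gene in each direction had an unadjusted p under 0.05, against 14.6% of all genes in either direction. PTGR2, a second prostaglandin reductase, read 48.8, 42.0 and 53.0 in transfected cells and 76.6, 71.8 and 65.4 in control, below without overlap (-0.58, SE 0.16, limma adjusted p = 0.210). PTGDR2, a prostaglandin D2 receptor, read 32.0, 29.1 and 27.6 against 18.5, 10.0 and 23.8, above without overlap (0.85, SE 0.34, limma adjusted p = 0.380, and 0.49 without control array 2). PRXL2B, a prostamide and prostaglandin F synthase, was above control without overlap (0.23, limma adjusted p = 0.497), but its difference was 0.05 after median centring. PTGIR, the prostacyclin receptor, overlapped (-0.77, limma adjusted p = 0.524).

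PTGER1, the EP1 receptor, and TBXAS1, thromboxane synthase, are given as a description. The study's table lists both as lower with FOXA1, and the differences at their brightest probesets were in the opposite direction, as for HPGD. PTGER1 read 32.4, 12.0 and 61.5 against 5.7, 25.9 and 17.0 at its brightest probeset, with overlap and a difference of 1.08 (ratio 2.12), and its other 2 probesets differed by -0.27 and 0.03. TBXAS1 read 23.7, 18.0 and 16.7 against 9.9, 12.8 and 17.6 at 208130_s_at, with overlap (0.56). That probeset is its brightest and the one in the study's table. Its other probeset, 236345_at, read 25.3, 16.3 and 16.8 against 10.7, 10.7 and 5.9, without overlap (1.12).

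Upstream of the cyclooxygenases, 19 of 22 genes of arachidonic acid release and uptake were measured. None passed limma over all probesets, where 12 of all 19775 genes passed higher and 6 lower. In the list 13 were above 0 and 6 below (68.4% above 0, against 59.2% of all genes). The median was 0.23, against 0.07 for all genes. PLAAT3, a phospholipase of adipose and other tissues, read 243.6, 236.9 and 230.7 against 303.7, 321.2 and 316.6. Its groups were well apart and below control (-0.40, SE 0.08, limma adjusted p = 0.118). PLA2G4C, a relative of PLA2G4A, read 13.8, 9.0 and 12.1 against 3.4, 1.5 and 1.9, so that its control arrays were all under 3.5 and its difference of 2.43 (SE 0.65, limma adjusted p = 0.199) rests on a group at the floor. DAGLB, a diacylglycerol lipase, and MBOAT7, which puts arachidonic acid into phosphatidylinositol, were above control without overlap (0.46 and 0.33, limma adjusted p = 0.294 and 0.296). After median centring their differences were 0.28 and 0.15.

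The lipoxygenase branch, which uses the same arachidonic acid to make leukotrienes, had 14 of 15 genes measured. None passed over all probesets, where 12 of all 19775 genes passed higher and 6 lower. In the list 5 were above 0 and 9 below (35.7% above 0, against 59.2% of all genes). For 3 of the 14 both group means were at or under 3.5, against 1474 of all 19775 genes, so their signs rest on signals at the floor. The median was -0.15, against 0.07 for all genes. MGST3, which can join glutathione to leukotriene A4, read 1124.8, 1092.0 and 1065.5 against 1466.5, 1510.9 and 1416.1, below control on every array. Its difference was -0.42 (SE 0.07), with a limma adjusted p of 0.0786 over all probesets. It was 0.034 when dim probesets were left out, 0.400 after median centring and 0.563 without the intensity trend. LTA4H, the leukotriene A4 hydrolase, differed by -0.19 with overlap (limma adjusted p = 0.496). ALOX12, a lipoxygenase, differed by 0.56 with overlap (limma adjusted p = 0.696). ALOX15B, another, differed by 1.07 with overlap (limma adjusted p = 0.663), but 4 of its 6 arrays were at or under 3.5, and the difference was 0.46 with signals under 3.5 set to it, 0.60 without FOXA1 array 1 and 1.65 without FOXA1 array 2.

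Downstream of EP2 and EP4, 26 of 29 genes of cyclic AMP signalling were measured. None passed over all probesets, where 12 of all 19775 genes passed higher and 6 lower. In the list 18 were above 0 and 8 below (69.2% above 0, against 59.2% of all genes). The median was 0.15, against 0.07 for all genes. GRK2, a kinase that desensitizes activated receptors, read 136.9, 100.2 and 110.4 against 65.2, 64.2 and 70.2. All transfected arrays were above all control arrays (0.79, SE 0.14, limma adjusted p = 0.0932), and the adjusted p was 0.0418 when dim probesets were left out, 0.385 after median centring and 0.474 without the intensity trend. ADCY5, an adenylyl cyclase, read 4.8, 3.1 and 8.8 against 10.3, 15.9 and 34.4, below control without overlap (-1.81, limma adjusted p = 0.286). FOXA1 array 2 was under 3.5 there, and the probeset was among the dim ones left out in that setting. The difference was -1.33 without control array 3 and -2.21 without FOXA1 array 3. The CREB coactivators CRTC2 (0.53) and CRTC3 (0.22) were above control without overlap, with limma adjusted p of 0.362 and 0.425. After median centring these 2 differences were 0.35 and 0.04.

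**Figure D4:**
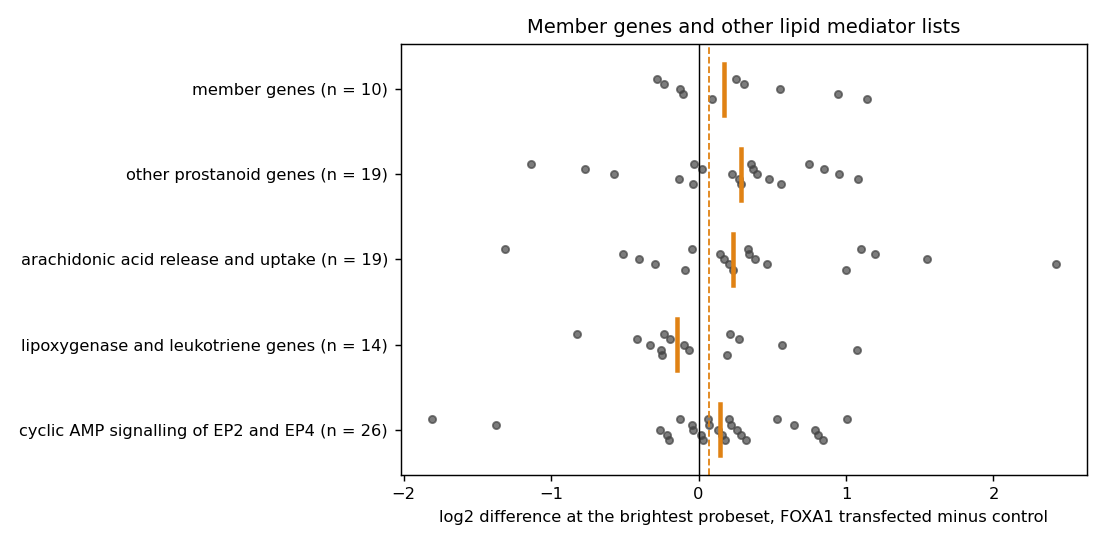
Log2 difference at the brightest probeset of each gene, FOXA1 transfected minus control, with 1 point per gene in the set of 10 and in the 4 other lists, an orange bar at each list's median and a dashed line at the median of all 19775 genes (0.07). The bar of the set of 10 includes HPGD (0.17, and 0.09 without it). Medians run from -0.15 for the lipoxygenase list, which was above 0 without FOXA1 array 1 or control array 1, to 0.29 for the other prostanoid genes, PTGER1 and TBXAS1 included, which was 0.11 after median centring, and single genes spread widely on both sides of 0.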

How the data were processed

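RNA on 6 HG-U133 Plus 2.0 arrays was compared, 3 FOXA1 transfected and 3 control, grouped by their labels. The authors deposited 1 intensity per probeset and array on a linear scale, which the labels name as MAS5. The methods describe RMA log2 values and SAM, so the deposited summary is another one, and SAM was not run here. Array control probesets (62) were left out and 54613 tested. Signals at 0 (25 in all) were set to 0.1 before log2, after which limma 3.58.1 (R 4.3.3) was fitted with lmFit and with eBayes using a trend on intensity. P-values were two-sided and adjusted by Benjamini-Hochberg across every probeset tested, at a threshold of 0.05. An exact permutation test of 3 against 3 arrays cannot give a p under 0.1, so none is given for single values. The number of arrays limits the precision.

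Symbols came from the platform annotation: 41091 probesets had 1 symbol, 1801 several and 11721 none, and 41037 of the first matched a current gene. A gene's value is that of its brightest probeset unless stated. All probesets of the 10 genes are named, and, of each other list, the genes of the study's table and up to 4 with the smallest p and a signal above the 20th percentile in a group. The members and lists were chosen with earlier results of these data known. Alternatives were no trend, quantile normalization, median centring, a floor at the 20th percentile, values under 1 set to 1, dim or _x_at probesets left out, each gene's probeset median, a replicate block and each array left out. The fit was tested on simulated data.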

Additional observations from a re-analysis of the deposited data

How the results depend on the processing

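Of the 17 probesets of the genes other than HPGD, 0 passed the threshold in any setting tried. The number of all probesets past it was 32 and moved widely: 1 without the intensity trend, 7 after median centring, 2 with values under 1 set to 1, 174 when dim probesets were left out (27298 tested) and 85 with the replicate block. It was 4 to 76 when single arrays were left out, 76 without FOXA1 array 3 and 4 without control array 3. Deviations of same-numbered arrays correlated at 0.0022, 0.0381 and 0.0110, and those of differently numbered arrays at -0.0254 to 0.0159. All were close to 0, so replicate numbers were not used as pairs in the main fit. These values do not settle whether the arrays were paired. The median of the 10 genes was 0.17 with HPGD, which was chosen from this contrast, and that of the 9 others was 0.09. The median of the 10 was 0.0515 after quantile normalization and -0.00788 after median centring. These 2 settings moved the median of all probesets from 0.08 to -0.00456 and -0.10. With dim probesets left out, 1 lipoxygenase gene (MGST3) and 1 cyclic AMP gene (GRK2) passed. Signs at the brightest probeset turned for PTGES3 after quantile normalization (-0.11) and median centring (-0.0883), for PTGS1 without FOXA1 array 1 (0.06) or control array 3 (0.17; range -0.29 to 0.17) and as the median over its probesets (0.58), and for PTGES as that median (-0.34). Of the other values of single genes, 120 had a test and kept their direction and side of the threshold, and 22 without a test kept their direction and moved by less than the spread between arrays. The list medians ranged from 0.11 (median centring) to 0.36 (dim probesets left out) for the other prostanoid genes (0.13 with _x_at probesets left out, 0.12 without control array 2), from -0.33 (median centring) to 0.09 (without FOXA1 array 1; 0.01 without control array 1) for the lipoxygenase list, from 0.05 (median centring) to 0.35 (without control array 2) for arachidonic acid release, and from -0.04 (median centring) to 0.18 (without control array 3) for cyclic AMP signalling. The cause of these moves was not tested. PTGER2 and 1 probeset each of PTGS1, PTGES and PTGER4 had 4 or more of 6 arrays at or under 3.5, too close to the floor for a difference to be read.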
